A study of Homo sapiens with 12 samples.

Results

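The genes of glycolysis and of the response to low oxygen were followed in human embryonic kidney HEK293 cells in which the transcriptional co-activator PGC-1α had been replaced. The set holds 36 genes, chosen by name for their place in these pathways, of 61860 genes in the count table. They are 2 glucose transporters, 9 enzymes of upper glycolysis, 8 enzymes of lower glycolysis and lactate formation, 4 kinases that set flux into or out of the pathway, 2 HIF subunits, 2 prolyl hydroxylases and 9 other HIF targets. Of these, 35 passed the filter of a mean count above 2 in every comparison. The exception was CA9, a surface carbonic anhydrase and classical hypoxia marker, which had between 0 and 2 counts in each of the 12 libraries.

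Both lines were Flp-In T-REx cells, in which a tetracycline-responsive cassette sits at a defined genomic site. Doxycycline at 1 µg/ml for 6 days induced, in both of them, a chain of miRNAs that deplete endogenous PGC-1α, together with an miRNA-resistant, FLAG-tagged PGC-1α. This was full length in the WT-res line and lacked the arginine/serine-rich RS region in the ΔRS-res line. Whole-cell and cytoplasmic RNA was depleted of ribosomal RNA and sequenced from 3 replicates per line, from consecutive passages, which gave 12 libraries with totals between 90333190 and 144628005 counts. The labels name no low-oxygen treatment, and all groups shared the depletion and the doxycycline, so none of the comparisons is with untreated cells. The p-values therefore measure the spread between passages of 1 stable line each.

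Glycolysis turns glucose into pyruvate in the cytosol. Lactate dehydrogenase then reduces pyruvate to lactate, or pyruvate dehydrogenase passes it to the mitochondrion unless pyruvate dehydrogenase kinases (PDKs) switch that enzyme off. When oxygen is short, the HIF α subunits escape hydroxylation by the EGLN prolyl hydroxylases, pair with ARNT and bind the core sequence RCGTG near genes such as LDHA, PDK1, SLC2A1 and VEGFA, many of them on the list. PGC-1α is known for driving mitochondrial respiration, the other route by which a cell uses pyruvate.

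The upstream sequences of 2 members are shown to make the core sequence visible in a classical HIF target and in the PDK gene of the set with the smaller p between the lines. In RefSeq windows (GRCh38.p14), the 250 bases before the start of LDHA (chr11:18394313-18394562, plus strand) and of PDK3 (chrX:24465036-24465285, plus strand) read as below, with ACGTG and GCGTG in capitals on either strand.
LDHA: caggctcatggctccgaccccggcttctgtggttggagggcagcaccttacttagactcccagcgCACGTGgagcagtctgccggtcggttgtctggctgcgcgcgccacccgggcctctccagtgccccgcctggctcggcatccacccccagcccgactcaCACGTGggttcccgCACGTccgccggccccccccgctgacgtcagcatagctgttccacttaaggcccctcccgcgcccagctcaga
PDK3: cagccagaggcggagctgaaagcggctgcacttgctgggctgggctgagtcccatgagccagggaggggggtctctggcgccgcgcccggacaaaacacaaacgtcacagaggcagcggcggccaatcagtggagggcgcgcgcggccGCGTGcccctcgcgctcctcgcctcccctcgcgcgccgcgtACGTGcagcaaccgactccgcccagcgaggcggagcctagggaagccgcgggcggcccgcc
The LDHA window held 5 matches to ACGTG, counting the palindrome CACGTG once on each strand, and none to GCGTG. The PDK3 window held 1 match to each. Windows of this kind were matched for 29 members, and 15 of them (51.7%) held ACGTG on either strand, against 21.0% of 14628 genes. For GCGTG the shares were 44.8% and 41.0%. These are matches of letters in a window and no measure of binding.

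PKM has a well-known switch of exons. Its full-length transcripts carry either the M1 exon (chr15:72203022-72203188, minus strand, hg38), used in muscle and brain, or the M2 exon (chr15:72202454-72202620), used in dividing cells. Both are coding exons of 167 bases, and capitals mark the 62 positions at which they differ, so that 62.9% of positions are shared.
PKM M1 exon: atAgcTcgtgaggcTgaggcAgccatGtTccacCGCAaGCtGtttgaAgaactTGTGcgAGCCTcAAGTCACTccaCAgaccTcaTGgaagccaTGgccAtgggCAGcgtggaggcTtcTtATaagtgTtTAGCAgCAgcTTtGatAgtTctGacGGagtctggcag
PKM M2 exon: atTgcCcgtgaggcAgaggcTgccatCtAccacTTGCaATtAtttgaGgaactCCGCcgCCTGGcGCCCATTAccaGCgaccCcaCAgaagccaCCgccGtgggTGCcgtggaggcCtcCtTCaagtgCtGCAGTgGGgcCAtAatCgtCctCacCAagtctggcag
The share of each exon in these cells is given with the transcripts.

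The order of the genes is given on the transcripts-per-million (TPM) scale, which corrects for transcript length. By the median over the 12 libraries GAPDH stood highest at 3489 TPM, followed by the enolase gene ENO1 (2267), the lactate dehydrogenase B gene LDHB (1458), PKM (1120) and the aldolase gene ALDOA (1008). Of the paired genes for one step, ENO1 stood far above the neuronal enolase gene ENO2 (40.5 TPM), and ALDOA far above ALDOC (6.00 TPM). HK1, a hexokinase of most tissues, was at 89.0 TPM and HK2 at 21.9. HIF1A (41.8 TPM) exceeded EPAS1 (1.35 TPM), which encodes HIF-2α, and ANKRD37 was the lowest of the tested genes at 1.25 TPM.

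The libraries were checked first, with levels of a gene across libraries on the counts-per-million (CPM) scale, which corrects for library size. Of genes known to be expressed in this line, NEFL (182.5 to 372.2 CPM), INA (51.3 to 92.5), PAX2 (2.79 to 5.81) and LHX1 (1.64 to 4.01) were detected in every library, while NEFM was at 0.694 CPM or less. Markers of blood, endothelium, liver and muscle (PTPRC, CD3E, PECAM1, ALB and MYOG) together reached at most 0.257 CPM in any library. PPARGC1A, the gene of PGC-1α itself, lay between 552.0 and 682.5 CPM in 5 of the WT-res libraries and between 295.7 and 486.1 CPM in ΔRS-res, counting endogenous and introduced transcripts together. The library labelled replicate 3 of WT-res whole-cell RNA had 487.0 CPM. In the same library DDX19B was at 0.195 CPM, where the other WT-res libraries had 12.1 to 15.2 and ΔRS-res 0.219 to 0.350, and SDHA at 327.6 CPM, where they had 68.0 to 77.2 and 325.6 to 382.3. It was kept under its label, and calls of members that changed without it are given beside the results.

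Of the 2 transporters, SLC2A3 was called between the lines and SLC2A1 was not. SLC2A3 encodes GLUT3, the high-affinity glucose transporter of neurons. In cytoplasmic RNA its level was 5.78, 4.75 and 4.92 CPM in WT-res and 1.52, 1.24 and 1.40 CPM in ΔRS-res. The groups did not overlap. SLC2A3 fell 3.69-fold in ΔRS-res (log2 fold change -1.88 ± 0.147 SE, adjusted p = 0.00117, edgeR, n = 3 per line). The main edgeR fit, without the replicate number as a block, called no other of the 35 tested members. Over all genes 0.948% were called lower. In a joint edgeR fit with the whole-cell libraries, which share 1 estimate of the spread, SLC2A3 was not called (adjusted p = 0.0588). In whole-cell RNA SLC2A3 was at 15.8, 15.3 and 4.07 CPM in WT-res and at 4.95, 4.38 and 4.81 CPM in ΔRS-res. Only the library labelled replicate 3 of WT-res whole-cell RNA sat at the ΔRS-res level, and with it the log2 fold change was -1.33 ± 0.454 SE (adjusted p = 0.291 by edgeR and 0.0324 by DESeq2). Without it SLC2A3 fell by 1.74 on the log2 scale (SE 0.104, adjusted p = 0.00051, edgeR).

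SLC2A3 lies at chr12:7919230-8019007 on the minus strand (GENCODE 44, GRCh38). Among genes within 5 Mb on either side with a mean count of at least 100, the median log2 fold change was 0.00 in the cytoplasm, over 101 genes. Its near-identical neighbour SLC2A14 carried between 1.35% and 4.62% of the summed counts of both genes, and its log2 fold change in the cytoplasm was -1.54 ± 0.409 SE (adjusted p = 0.166, edgeR). Reads that fit both genes may have been shared out between them, so the size of the difference in either is less certain. Named pseudogenes carried between 1.38% and 7.95% of the summed counts of SLC2A3 and its pseudogenes, by library. The SLC2A3 counts behind these values ran from 158.9 to 1900.1 per library. Since RNA was taken from whole cultures, a lower level in every cell and loss from part of the cells cannot be told apart.

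SLC2A1 encodes GLUT1, the basal glucose transporter and a HIF target. It was at 67.9, 64.5 and 41.0 CPM in WT-res whole-cell RNA and at 67.3, 65.5 and 47.5 CPM in ΔRS-res. The third replicate was the low one in both lines, and the groups overlapped. The difference between lines was 0.04 ± 0.215 on the log2 scale in whole-cell RNA and 0.13 ± 0.212 in the cytoplasm (adjusted p = 0.966 and 0.903, edgeR).

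**Figure D1:**
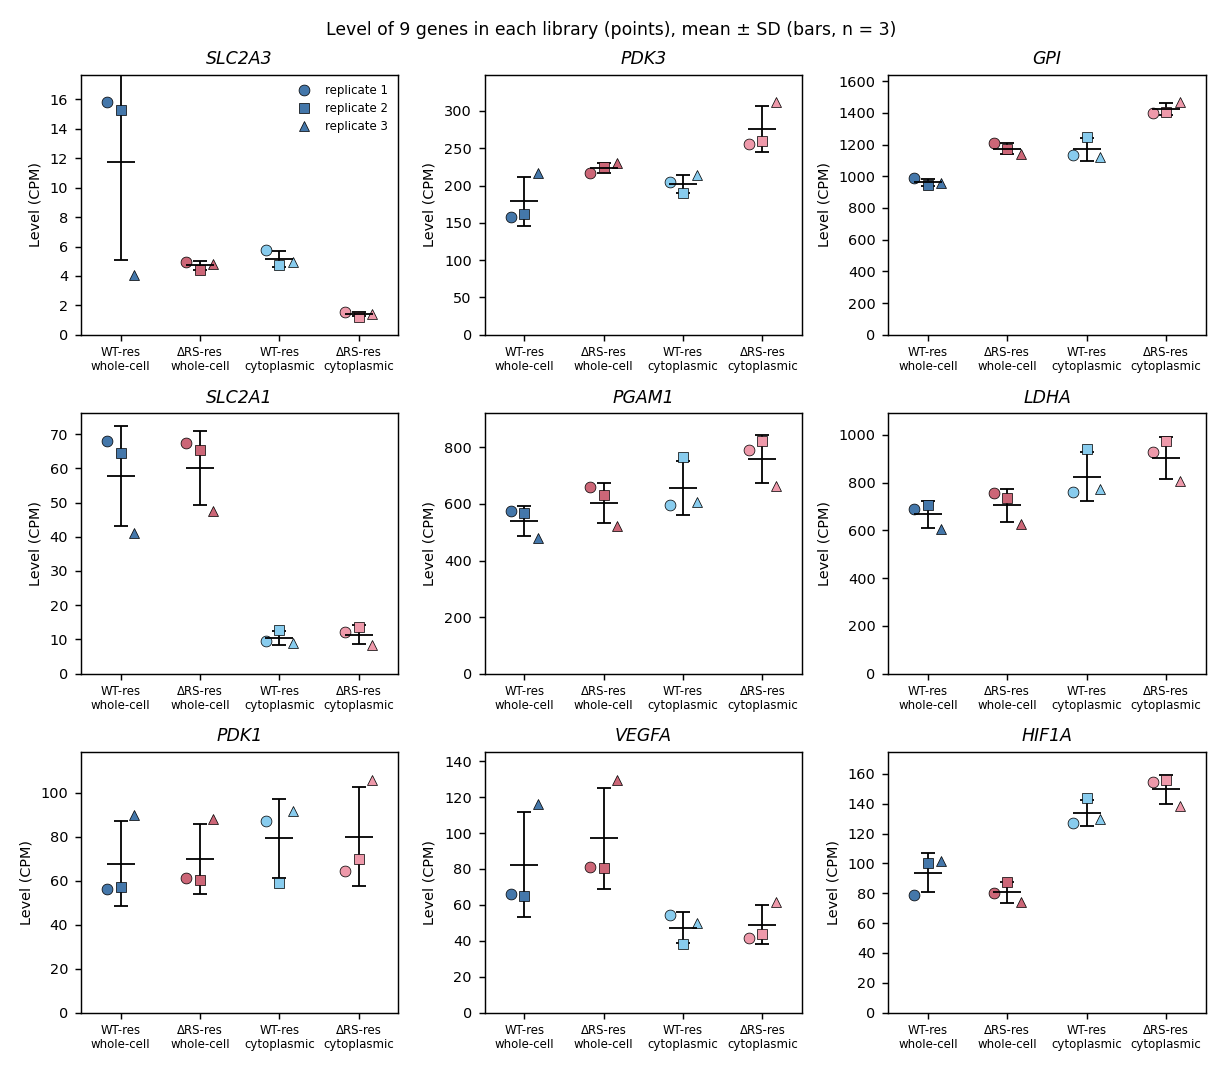
Level (CPM, vertical axes from 0) of 9 genes in every library, by line and RNA fraction; symbols give the replicate and bars the mean ± SD of 3 libraries. SLC2A3 is lower in ΔRS-res except against the library labelled replicate 3 of WT-res whole-cell RNA. For SLC2A1, PDK1 and VEGFA replicate 3 stands apart, except in WT-res cytoplasmic RNA, where replicate 2 does.

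The enzymes of glycolysis mostly had somewhat higher levels in ΔRS-res. By edgeR without the replicate number as a block, these amounts did not pass the test across all genes. All 9 upper-glycolysis genes had a positive log2 fold change in whole-cell RNA (median 0.23) and 8 of 9 had one in the cytoplasm (median 0.25). Of the 8 lower genes, 7 and 8 were higher (medians 0.13 and 0.15). The median over all genes tested was 0.00 in both fractions. Without the library labelled replicate 3 of WT-res whole-cell RNA, 8 of 9 upper and 7 of 8 lower genes were higher in whole-cell RNA (medians 0.27 and 0.08). By edgeR without the block none of the 17 enzymes was called in either comparison. DESeq2 called GPI in both (adjusted p = 0.0114 in whole-cell RNA and 0.0247 in the cytoplasm). In whole-cell RNA edgeR without the block called no gene at all (0% of 26793, although 3360 had an unadjusted p under 0.05). DESeq2 called 1062, and edgeR with the block 2136.

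GPI, glucose-6-phosphate isomerase, had the smallest p among the enzymes in both fractions. Its level was 986.1, 942.3 and 958.2 CPM in WT-res whole-cell RNA and 1210.3, 1173.4 and 1137.7 CPM in ΔRS-res. In the cytoplasm it was 1136.4, 1249.6 and 1121.3 CPM in WT-res and 1398.8, 1404.3 and 1466.0 CPM in ΔRS-res. No ΔRS-res library overlapped with WT-res in either fraction, and the log2 fold changes were 0.28 ± 0.0665 and 0.29 ± 0.0777 (adjusted p = 0.213 and 0.169, edgeR). The hexokinase gene HK1 was at 184.9 ± 21.1 CPM in WT-res and 231.8 ± 19.1 CPM in ΔRS-res whole-cell RNA (SD, n = 3). Its log2 fold change of 0.32 ± 0.0996 was not called either (adjusted p = 0.257, edgeR). For HK2 the log2 fold change was 0.01 ± 0.112.

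Counted by groups that did not overlap, 10 of 35 members (28.6%) were higher in every ΔRS-res whole-cell library than in every WT-res one, against 9.51% of all genes tested. They were HK1, GPI, PFKL, ALDOA, GAPDH, PGK1, the fructose-2,6-bisphosphate enzymes PFKFB3 and PFKFB4, the prolyl hydroxylase EGLN3 and the mitophagy receptor BNIP3. No member was lower in all, where 9.50% of genes were. These counts include the library labelled replicate 3 of WT-res whole-cell RNA. The other WT-res whole-cell libraries had SLC2A3 at 15.8 and 15.3 CPM and ADM at 14.9 and 15.2 CPM. Every ΔRS-res whole-cell library was lower, at most 4.95 and 13.9 CPM. PFKP, ENO2, PDK3 and VEGFA were among the members that were higher in every ΔRS-res library once that library was set aside. The shares over all genes without it were not counted. In the cytoplasm 9 members (25.7%, against 8.35%) were higher and 2 were lower (5.71%, against 9.01%), the latter being SLC2A3 and ANKRD37. HK1, GPI, GAPDH, PGK1, PFKFB4, EGLN3 and BNIP3 were higher in both fractions. The members were expressed more highly than most genes (median of mean counts 10130, against 214 over all genes tested), and the part of this in the shares above was not tested.

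Same-numbered whole-cell libraries of the lines deviated together, so the fit with the replicate number as a block is given beside the unblocked one. With the block, 7 members rose in ΔRS-res whole-cell RNA and none fell, or 20.0% higher against 2.78% of all genes, where 5.19% of genes were called lower. These were HK1 (log2 fold change 0.32, adjusted p = 0.0255), GPI (0.28, 0.0298), PFKL (0.27, 0.0322), PFKP (0.23, 0.0344), ALDOA (0.22, 0.0445), ENO2 (0.32, 0.0356) and VEGFA (0.24, 0.0386), all by edgeR. They are 5 enzymes of upper glycolysis, the neuronal enolase and the angiogenic growth factor. When the library labelled replicate 3 of WT-res whole-cell RNA was left out of the blocked fit, a setting chosen after seeing the data, 10 members rose (28.6%, against 7.41%), and SLC2A3 fell (2.86%, against 9.20%).

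Among the regulators of flux, PDK3 had the smallest p in both fractions. PDK3 encodes a pyruvate dehydrogenase kinase that holds pyruvate back from the mitochondrion, and it lies at chrX:24465244-24550466. In the cytoplasm it was at 204.1, 189.9 and 213.9 CPM in WT-res and at 255.6, 260.2 and 311.3 CPM in ΔRS-res, with no overlap. The log2 fold change of 0.45 ± 0.0941 was not called over all 6 libraries by edgeR (adjusted p = 0.0718), and was by DESeq2 (adjusted p = 0.00382). In whole-cell RNA PDK3 was at 158.4, 161.5 and 216.8 CPM in WT-res and at 216.4, 224.3 and 229.7 CPM in ΔRS-res. The library labelled replicate 3 of WT-res whole-cell RNA was again at the ΔRS-res level. With it the log2 fold change was 0.31 ± 0.120 (adjusted p = 0.346), and without it PDK3 rose by 0.46 ± 0.0632 (adjusted p = 0.0151, edgeR). PDK3 was then the only member to rise (2.86%, against 0.886% of genes) and SLC2A3 the only one to fall (2.86%, against 1.18%).

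PDK1, the PDK best known as a HIF target, overlapped between the lines. Its log2 fold change was 0.04 ± 0.217 in whole-cell RNA and 0.02 ± 0.218 in the cytoplasm (adjusted p = 0.972 and 0.990, edgeR). PFKFB4, which like PFKFB3 makes the activator of phosphofructokinase, was low, between 2.72 and 4.26 CPM over all libraries, and its log2 fold changes were 0.35 ± 0.143 and 0.31 ± 0.131 (adjusted p = 0.380 and 0.457, edgeR).

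HIF1A, the oxygen-regulated subunit itself, was at 78.5, 100.5 and 101.7 CPM in WT-res whole-cell RNA and at 79.9, 87.6 and 74.1 CPM in ΔRS-res. In the cytoplasm the order was the other way, with 127.2, 143.5 and 129.8 CPM in WT-res and 154.8, 155.8 and 138.4 CPM in ΔRS-res. The groups overlapped in both fractions. The log2 fold changes were -0.23 ± 0.117 and 0.17 ± 0.0838, and the difference between these effects was 0.38 ± 0.149 (interaction of line and fraction, adjusted p = 0.777, edgeR). EPAS1 had 0.22 ± 0.167 and -0.06 ± 0.160. The prolyl hydroxylase genes EGLN1 and EGLN3, of which EGLN1 encodes the main oxygen sensor, had cytoplasmic log2 fold changes of 0.20 ± 0.0698 and 0.22 ± 0.0878 (adjusted p = 0.333 and 0.421, edgeR).

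The HIF targets outside glycolysis were divided in direction. Of 8 tested, 4 were higher and 4 lower in ΔRS-res whole-cell RNA (median log2 fold change -0.04), and 5 were higher and 3 lower in the cytoplasm (median 0.02). None was called by edgeR without the block or by DESeq2. ANKRD37, a small ankyrin-repeat gene used as a hypoxia readout, was at 1.09, 0.876 and 0.866 CPM in WT-res cytoplasm and at 0.524, 0.632 and 0.803 CPM in ΔRS-res. These groups did not overlap, but the counts were few (55 to 120 per cytoplasmic library) and the log2 fold change of -0.51 ± 0.213 was not called (adjusted p = 0.435, edgeR). In the same fraction BNIP3L, a mitophagy receptor related to BNIP3, had 0.03 ± 0.0943, and KDM3A, a histone demethylase, had 0.02 ± 0.0791.

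**Figure D2:**
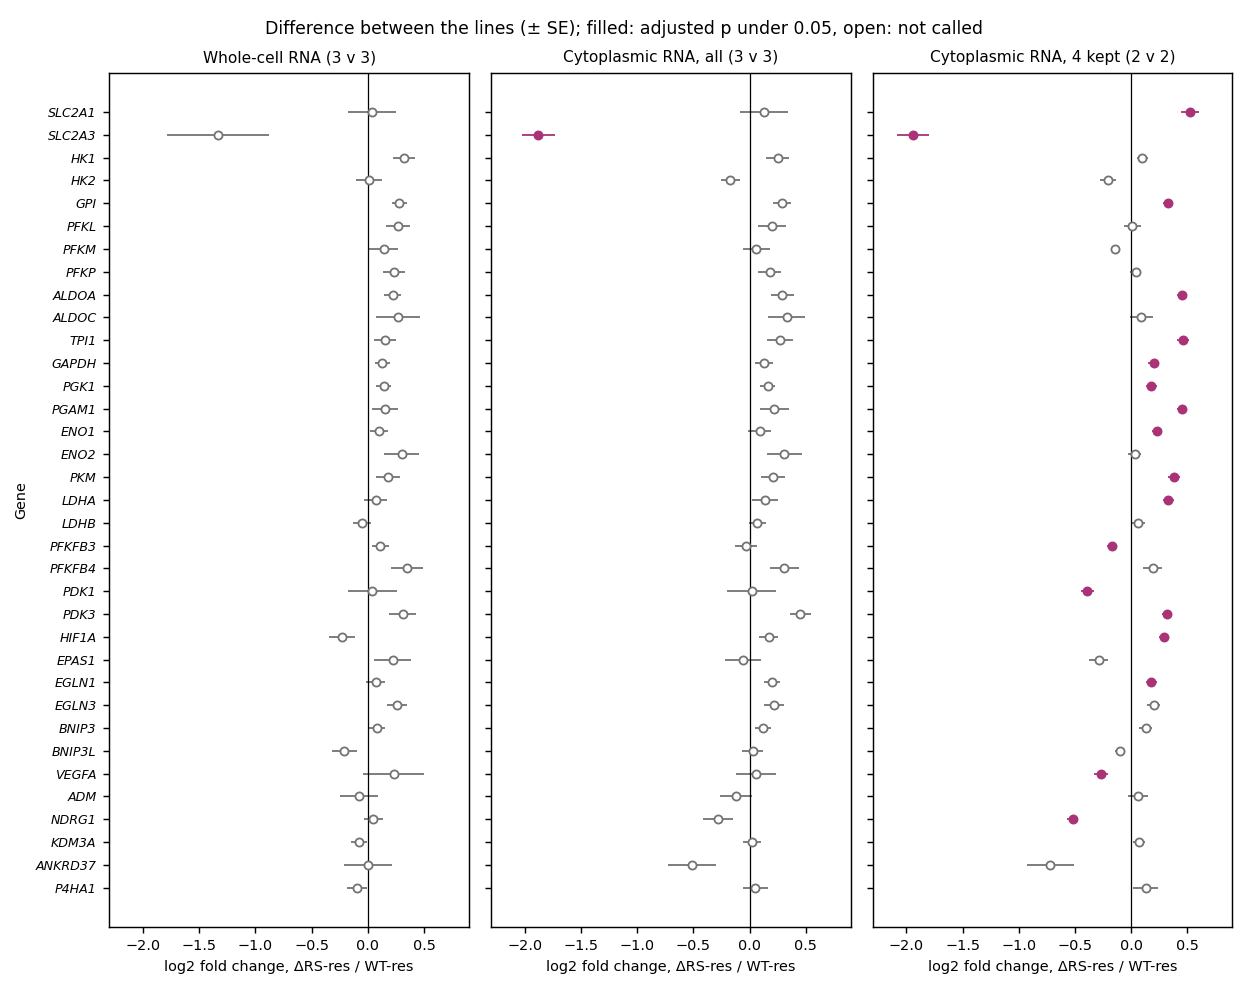
Log2 fold change of ΔRS-res over WT-res (horizontal axes, ± SE) for the 35 tested genes in whole-cell RNA, all 6 cytoplasmic libraries and the 4 cytoplasmic libraries that the study kept; filled points passed an adjusted p of 0.05 and open points did not. SLC2A3 stands at -1.33, -1.88 and -1.94, most enzymes lie just above 0 in the first 2 panels, and 18 genes are filled in the third.

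The study left out 1 cytoplasmic library per line, keeping WT-res replicates 1 and 3 and ΔRS-res replicates 1 and 2. Over these 4 libraries 13 members rose and 5 fell in ΔRS-res (37.1% and 14.3%, against 10.7% and 11.4% of all genes). Those that rose were SLC2A1, 9 enzymes (GPI, ALDOA, TPI1, GAPDH, PGK1, PGAM1, ENO1, PKM and LDHA), PDK3, HIF1A and EGLN1. Those that fell were SLC2A3, PFKFB3, PDK1, VEGFA and NDRG1, a stress-induced HIF target. The sizes were mostly small, such as 0.45 ± 0.0460 for ALDOA, 0.46 ± 0.0501 for TPI1 and 0.33 ± 0.0485 for LDHA (adjusted p = 0.00226, 0.00265 and 0.00639, edgeR). SLC2A1 rose by 0.52 ± 0.0799 and PDK1 fell by 0.39 on the log2 scale (SE 0.0594, adjusted p = 0.00764 and 0.00713), where over all 6 libraries the same genes had 0.13 and 0.02.

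The calls over the 4 libraries rested on which libraries entered. With all 4, 18 of 35 members were called in either direction (37.1% higher and 14.3% lower), against 22.1% of all genes. Without ΔRS-res cytoplasmic replicate 1, 8 of 35 members were called, against 8.56% of genes. Without ΔRS-res cytoplasmic replicate 2, 6 of 35 were, against 7.73%. Without WT-res cytoplasmic replicate 1 or 3 there were 19 and 20 of 35, against 24.5% and 24.1%. In a joint fit with the whole-cell libraries 2 were called, against 1.38% of genes, and SLC2A3 was not among them (adjusted p = 0.0869, edgeR). The number of members called thus moved with the number called over all genes. With all 4 libraries, the share of members called higher (37.1%) was above that of all genes (10.7%). The reason for this was not tested.

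The replicates differed among themselves, and in 4 libraries most members stood apart. In the library labelled replicate 3 of WT-res whole-cell RNA, 32 of 35 members were the highest or the lowest of their 3 replicates, and the count was 31 in ΔRS-res whole-cell replicate 3, 30 in WT-res cytoplasmic replicate 2 and 32 in ΔRS-res cytoplasmic replicate 3. The other 8 libraries had between 17 and 21. Of 14938 genes with a mean count of at least 100, 87.8%, 86.2%, 82.7% and 89.5% were the highest or the lowest in the same 4 libraries, where the members had 91.4%, 88.6%, 85.7% and 91.4%, and between 49.6% and 62.6% were in the other 8. The cytoplasmic libraries among these 4 are those that the study left out, and their part in the calls over the kept libraries was not tested. VEGFA, the angiogenic growth factor, was at 66.1, 65.1 and 116.2 CPM in WT-res whole-cell RNA and at 81.0, 80.7 and 129.5 CPM in ΔRS-res, so the third replicate was highest in both lines. PDK1 was at 56.1, 57.1 and 89.9 CPM and at 61.2, 60.4 and 88.1 CPM, with the same library highest. The phosphoglycerate mutase gene PGAM1 went the other way, with 573.6, 569.1 and 480.3 CPM and with 658.3, 630.3 and 523.0 CPM.

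The same opposition held in the cytoplasm. In ΔRS-res cytoplasmic RNA PDK1 was at 64.2, 70.0 and 105.7 CPM, whereas PGAM1 was at 790.3, 821.6 and 662.2 CPM. In WT-res cytoplasmic RNA PDK1 was at 86.9, 58.8 and 91.8 CPM and PGAM1 at 594.8, 766.0 and 605.6 CPM, so there the second replicate stood apart, with PDK1 low and PGAM1 high. ENO2, PFKM, PFKP, HK1, ALDOC, EPAS1 and VEGFA deviated with PDK1 in these 4 libraries, while SLC2A1, ALDOA, TPI1, ENO1, PKM and LDHA deviated with PGAM1. These genes were grouped after their values were seen. The widest spread within a group was that of SLC2A3 in WT-res whole-cell RNA (SD of log2 CPM 1.05), where the library labelled replicate 3 stood apart. In the other groups it was that of VEGFA in ΔRS-res whole-cell RNA (0.39) and of PDK1 in WT-res and ΔRS-res cytoplasmic RNA (0.348 and 0.382). GAPDH and PGK1 had an SD of 0.06 or less in every group. Over the 34 members with a mean count of at least 100 the median SD was 0.148 and 0.111 in WT-res and ΔRS-res whole-cell RNA and 0.134 in either cytoplasmic group. Over 14938 genes it was 0.150, 0.110, 0.126 and 0.125 in the same order.

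**Figure D3:**
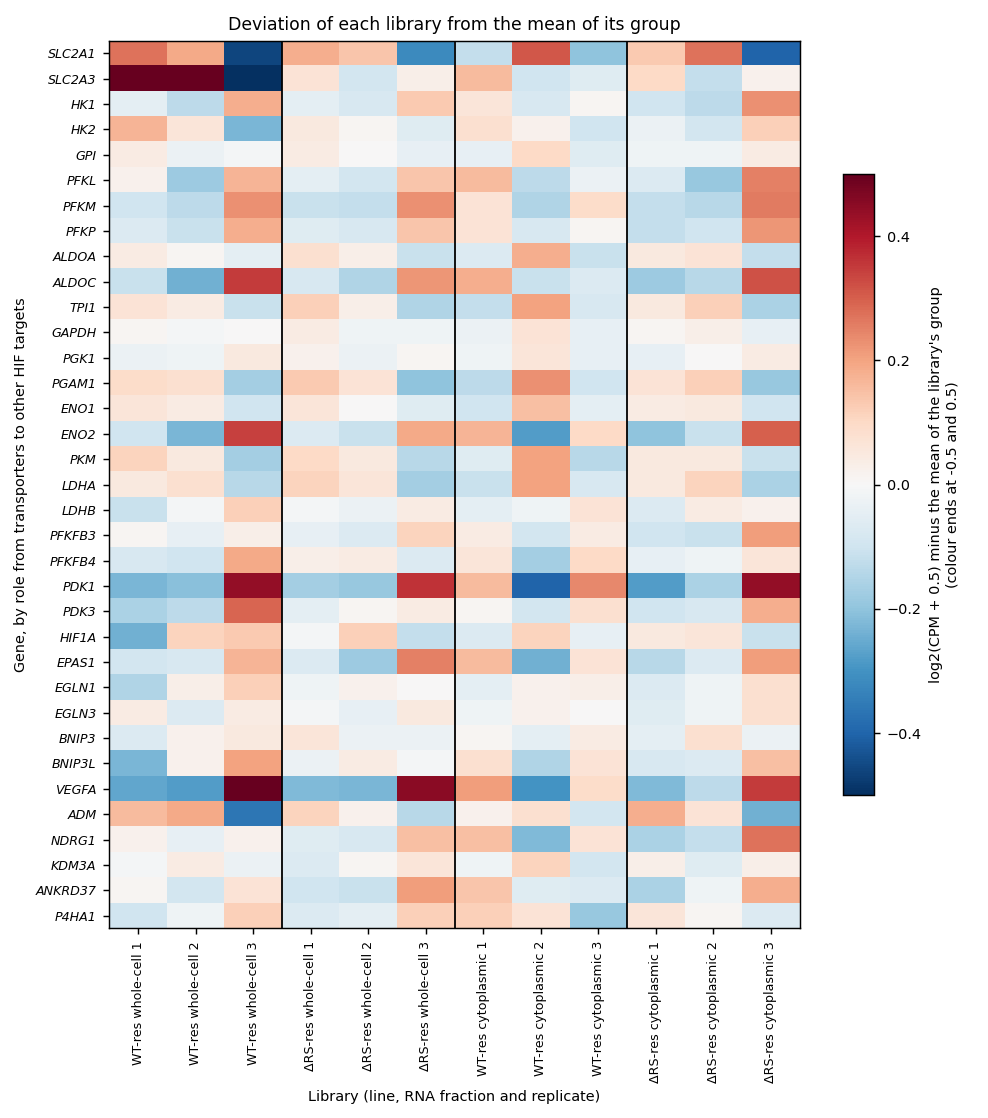
Deviation of log2(CPM + 0.5) from the mean of the library's own group for 35 genes (rows) in 12 libraries (columns), red above and blue below the mean, with colours ending at ±0.5. The third whole-cell replicates and ΔRS-res cytoplasmic replicate 3 are red for PDK1, VEGFA and ENO2 and blue for SLC2A1, PGAM1 and LDHA, and WT-res cytoplasmic replicate 2 shows the reverse.

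The cytoplasmic fraction was the supernatant of cells opened in hypotonic buffer and cleared by centrifugation, and values are relative to all counts of a library, so a positive value means enriched relative to the average transcript. In WT-res 12 of 35 members were higher in cytoplasmic than in whole-cell RNA and 4 were lower (34.3% and 11.4%, against 12.0% and 22.4% of genes). Without the library labelled replicate 3 of WT-res whole-cell RNA the counts in WT-res were 14 and 5 (40.0% and 14.3%, against 13.9% and 22.7%). HK2, GPI and KDM3A were then no longer called (adjusted p = 0.0857, 0.0731 and 0.0858, against 0.0499, 0.0419 and 0.0394 with it), while SLC2A3, HK1, PFKM, ALDOC, PDK3 and EPAS1 were, all by edgeR. In ΔRS-res 14 were higher and 5 lower (40.0% and 14.3%, against 17.0% and 24.1%). With the replicate number as a block, which by the study's sample sheet marks a shared cell pellet, 15 were higher and 4 lower in WT-res (42.9% and 11.4%, against 15.4% and 23.3%), and 23 were higher and 5 lower in ΔRS-res (65.7% and 14.3%, against 26.3% and 30.2%). With all libraries and no block, the calls made in both lines were GPI, GAPDH, PGK1, LDHB, HIF1A, EGLN1, BNIP3, BNIP3L and KDM3A, which were higher, and SLC2A1, VEGFA, ADM and P4HA1, which were lower.

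SLC2A1 had the lowest cytoplasmic level for its whole-cell level. It was at 9.46, 12.9 and 8.92 CPM in WT-res cytoplasm and at 12.3, 13.6 and 8.32 CPM in ΔRS-res, against the whole-cell values of 41.0 to 67.9 CPM given above. No cytoplasmic library reached a whole-cell one, and the log2 fold changes were -2.48 ± 0.233 and -2.40 ± 0.211 (adjusted p = 0.00013 and 6.75e-05, edgeR). P4HA1, a subunit of the enzyme that hydroxylates collagen in the endoplasmic reticulum, was at 44.7 ± 3.58 CPM in whole-cell and 12.8 ± 1.47 CPM in cytoplasmic RNA of WT-res (SD, n = 3), and fell by 1.81 and 1.67 on the log2 scale (adjusted p = 1.62e-05 and 2.94e-06, edgeR). ADM, the secreted vasodilator adrenomedullin, fell by 1.08 and 1.13, and VEGFA fell by 0.80 and 0.98. SLC2A3 fell by 1.76 in ΔRS-res (adjusted p = 3.76e-05). In WT-res it had -1.20 ± 0.443 (adjusted p = 0.0681), and without the library labelled replicate 3 of WT-res whole-cell RNA it fell by 1.63 (adjusted p = 5.75e-05, edgeR).

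The 5 tested members whose proteins are secreted, stay in the endoplasmic reticulum or reach the cell surface were thus all lower in cytoplasmic RNA, with medians of -1.20 in WT-res and -1.67 in ΔRS-res. The other 30 ran from 0.12 to 0.69 in WT-res and from -0.06 to 0.93 in ΔRS-res. VEGFA enters as the sum over its forms, and the forms differed in their shares between the fractions. In WT-res the coding form VEGFA-206 made up 23.2% of whole-cell and 39.8% of cytoplasmic counts. For the retained-intron form VEGFA-212 the shares were 20.2% and 11.7%. The fall of the sum therefore need not hold for each form, and the forms were not tested between fractions. The grouping of the members was made after the values were seen. The wider pathway lists were sorted by the same rule, after the member values were seen. There 17 of 17 tested genes with such proteins were lower in cytoplasmic RNA in both lines. Of these, 15 were called in WT-res and 16 in ΔRS-res, where 22.4% and 24.1% of all genes were called lower. They include, in WT-res, P4HA2 (-2.66 ± 0.117) and PLOD1 (-2.44 ± 0.159), which modify collagen, and ERO1A (-1.64 ± 0.0852), an oxidase of the endoplasmic reticulum. The lowest was the lactate transporter gene SLC16A1 (-3.15 ± 0.119 in WT-res and -3.17 ± 0.120 in ΔRS-res, adjusted p = 4.94e-06 and 1.31e-06, edgeR). Of the other 53 wider genes, 14 were lower in each line.

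The enzymes made in the cytosol showed the opposite sign. All 17 glycolytic enzymes were higher in the cytoplasmic fraction in both lines, by log2 fold changes of 0.12 to 0.43 in WT-res and 0.12 to 0.49 in ΔRS-res. Without the block 5 and 8 of them were called (29.4% and 47.1%, against 12.0% and 17.0% of genes called higher). With the replicate block 8 (47.1%) and 14 (82.4%) of them were called, against 15.4% and 26.3% of genes called higher. GAPDH rose from 2499 to 3372 CPM in WT-res (means of 3) by 0.43 ± 0.0849, and LDHB by 0.38 ± 0.0929 (adjusted p = 0.00694 and 0.0156, edgeR). Outside the enzymes, BNIP3L had 0.69 ± 0.124 in WT-res and 0.93 ± 0.0850 in ΔRS-res (adjusted p = 0.00419 and 8.28e-05), and HIF1A had 0.51 ± 0.117 and 0.90 ± 0.0883 (adjusted p = 0.0129 and 0.000126, edgeR). NDRG1 rose by 0.56 ± 0.107 in WT-res (adjusted p = 0.00572) and had 0.23 ± 0.127 in ΔRS-res (adjusted p = 0.187).

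**Figure D4:**
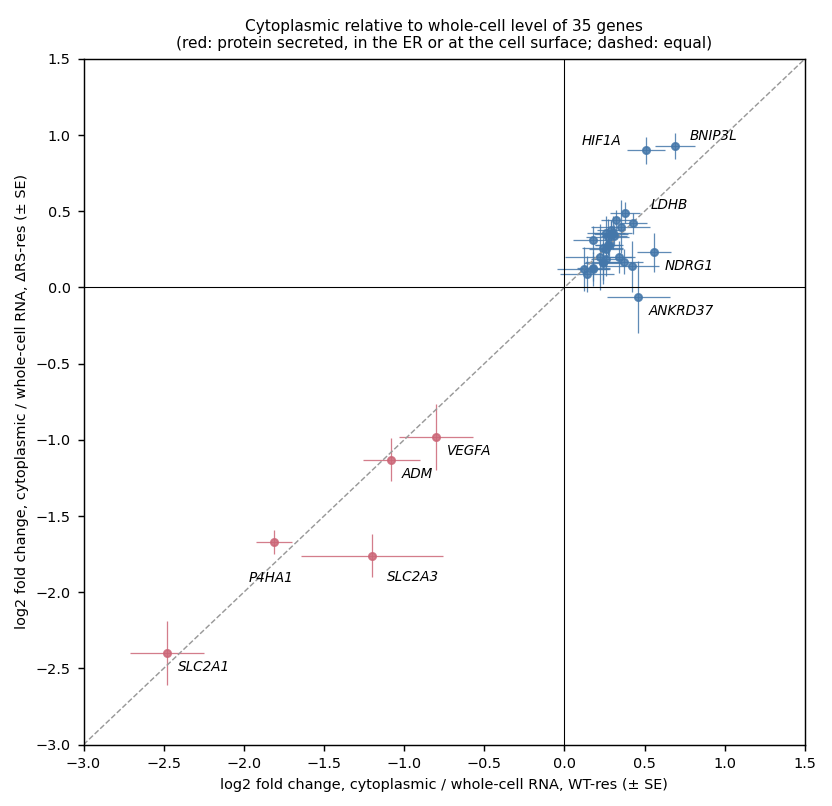
Log2 fold change of cytoplasmic over whole-cell RNA in WT-res (horizontal) and ΔRS-res (vertical), ± SE, for 35 genes; the dashed line marks equal values. The 5 red genes, whose proteins are secreted, in the endoplasmic reticulum or at the cell surface, lie from -2.48 to -0.80 in WT-res, and the blue genes lie near or above 0.

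The comparison that asks whether the lines differ in the cytoplasm by other amounts than in whole cells found no member. The interaction of line and fraction called 1 gene of 26686 (0.00375%), not one of the 35, while 1472 genes had an unadjusted p under 0.05 and DESeq2 called 0. Without the library labelled replicate 3 of WT-res whole-cell RNA no member was called either. The member nearest to a call was HIF1A at 0.38 ± 0.149. The interaction was -0.58 ± 0.520 for SLC2A3, and -0.17 ± 0.172 without that library (adjusted p = 0.889). The standard errors of the interaction ran from 0.0827 (PGK1) to 0.520 (SLC2A3).

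By edgeR without the block, over all libraries of a fraction, the wider pathway lists gave few differences between the lines. Of 36 further genes of glucose and lactate handling, 32 were tested in the cytoplasm and 1 was called over all 6 libraries, namely PDK2, another pyruvate dehydrogenase kinase gene, which rose by 0.46 ± 0.0812 in ΔRS-res (adjusted p = 0.0348, edgeR). That was 3.12% called higher, against 0.578% of all genes. In whole-cell RNA none of 30 was called by edgeR. DESeq2 and edgeR with the replicate block each called 1 as higher (3.33%, against 1.01% and 2.78% of all genes). Without the library labelled replicate 3 of WT-res whole-cell RNA, PDK2 (0.45 ± 0.0837, adjusted p = 0.0474) and PDHA1 (0.53 ± 0.0892, adjusted p = 0.0333), which encodes the pyruvate dehydrogenase subunit that the PDKs phosphorylate, rose. These were 6.45% of the tested genes, against 0.886% of all genes called higher. With the block and without that library, 8 of 31 rose and none fell (25.8%, against 7.41% of all genes called higher). That setting was chosen after seeing the data. Of 39 further HIF pathway genes all were tested, and by edgeR without the block none was called in either fraction. With the block 3 were higher and 1 lower in whole-cell RNA (7.69% and 2.56%, against 2.78% and 5.19% of all genes). Without that library the blocked fit called 4 higher and 2 lower (10.3% and 5.13%, against 7.41% and 9.20%). DESeq2 called 2 higher and 1 lower in whole-cell RNA (5.13% and 2.56%, against 1.01% and 2.95%). In the cytoplasm it called 1 higher and 2 lower (2.56% and 5.13%, against 1.65% and 1.96%). Over the 4 cytoplasmic libraries kept by the study, 7 of 31 tested glucose and lactate genes rose and 2 fell (22.6% and 6.45%), and 6 of the 39 HIF pathway genes rose and 10 fell (15.4% and 25.6%), against 10.7% and 11.4% of all genes. Those with the smallest adjusted p were PCK2 (-0.83 ± 0.0580) and TIGAR (0.70 ± 0.0517) among the former, and among the latter TFRC (0.58 ± 0.0458), RORA (-0.46 ± 0.0480) and DDIT4 (-0.54 ± 0.0565).

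At the level of transcripts the members had 503 annotated forms. In whole-cell RNA 353 were tested and none was called (0% of 129700 transcripts). In the cytoplasm 328 were tested and none was called (0.0241% of 124558). At an unadjusted p under 0.05 there were 33 and 30, and DESeq2 called 12 and 6 transcripts of the members. The shares over all transcripts above are of adjusted calls by edgeR. No such share is given for the unadjusted p or for DESeq2, so these counts cannot be set against a background. For 18 of 35 genes the reference (MANE Select) transcript carried at least 80% of the counts, and for 8 it carried under 50%. PDK3 was one of the latter, with a median of 1.1% in its reference form and between 96.4% and 97.6% by group in the 12720-base form PDK3-203. PGK1 had between 69.0% and 70.5% in PGK1-206, and LDHB had the same share, 45.1% to 45.5% by group, in each of LDHB-201 and LDHB-211, which have 1303 bases each and were given equal counts.

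VEGFA was spread over several forms. VEGFA-206, a coding form, made up 23.2% and 22.1% of its whole-cell counts in WT-res and ΔRS-res and 39.8% and 37.1% of its cytoplasmic counts. The form VEGFA-212, with a retained intron, made up 20.2% and 19.8% in whole-cell and 11.7% and 12.6% in cytoplasmic RNA, and VEGFA-215, of the same class, 16.1% and 15.7% against 8.2% and 8.5%. In each case the lines differed less than the fractions. Their whole-cell log2 fold changes between lines were 0.24 ± 0.196, 0.26 ± 0.245 and 0.24 ± 0.384, none of them called.

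PKM was read through its M2 exon almost entirely. Of its 25 annotated forms 5 held the M1 exon shown above, 5 held the M2 exon and 15 held neither. The M2 form PKM-202 alone carried between 90.5% and 96.1% of the counts per library. Among counts of forms with either exon, the M1 share in the cytoplasm was 1.92%, 1.88% and 2.05% in WT-res and 2.65%, 2.64% and 2.69% in ΔRS-res. The ΔRS-res libraries were all higher, by 0.71 percentage points (two-sided exact permutation test, p = 0.1, the smallest that 3 against 3 allows). In whole-cell RNA the M1 share was 2.05%, 2.01% and 3.10% in WT-res and 2.72%, 2.81% and 2.88% in ΔRS-res, and the library labelled replicate 3 of WT-res whole-cell RNA was the highest of all (two-sided exact permutation test over all 6, p = 0.4). The other WT-res whole-cell libraries lay below every ΔRS-res one. The counts of M1 forms were between 2928 and 7205 per library. The main M1 form, PKM-215, had a cytoplasmic log2 fold change of 0.78 ± 0.121 between lines, with an unadjusted p of 0.000529 and an adjusted p of 0.235 by edgeR over all transcripts (4.26e-07 by DESeq2), where PKM-202 had 0.21 ± 0.0971. These shares are estimates that assign reads among overlapping forms, and the forms with neither exon took a further 1.62% to 6.14% of PKM counts.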

How the data were processed

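Whole-cell and cytoplasmic RNA of 2 lines was measured in 12 libraries, 3 per group. The authors used Trim Galore for trimming, STAR for alignment (GRCh38, Ensembl release 107) and RSEM for quantification, and deposited expected counts per transcript with no normalization. The study tested with DESeq2. For the values given here, the expected counts were summed per gene, rounded and scaled by trimmed mean of M-values. Genes with a mean count above 2 were tested with edgeR 4.0.16 (quasi-likelihood test, R 4.3.3), with Benjamini-Hochberg adjustment over all genes tested and a threshold of 0.05. DESeq2 1.42.0 was an alternative. CPM values use effective library sizes over all 12 libraries, and TPM values use transcript lengths of GENCODE 44, which matched 99.83% of genes. Exact permutation tests used scipy 1.17.1. The fits were tested on simulated data.

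The members and pathway lists were chosen with earlier results of these data known. All 36 members are accounted for, and of other pathway genes at most 3 per comparison are named, those with the smallest adjusted p, and 1 such result is not reported here. Multi-mapping reads are shared out by estimation, and pseudogenes carried at most 7.95% of the counts of a member and its pseudogenes. That highest share was for SLC2A3, and for every other member it was 0.44% or less.

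Same-numbered libraries deviated together between lines in whole-cell RNA (correlations of deviations 0.545, 0.550 and 0.683 over 14938 genes) and between fractions in ΔRS-res (0.518, 0.466 and 0.797). Between fractions in WT-res they were -0.167, 0.588 and 0.473. The sample sheet of the study gives both fractions of one number the same cell pellet.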

Additional observations from a re-analysis of the deposited data

How the results depend on the processing

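In whole-cell RNA no member was called between the lines, with 2 called by DESeq2's Wald test, 7 with the replicate block, 11 with the block and the library labelled replicate 3 of WT-res whole-cell RNA left out (added after seeing the data), 1 in a joint fit over all libraries and 1 at the threshold of the study (unadjusted p under 0.05 and a log2 fold change beyond 0.5). Leaving out 1 library at a time gave 0 to 2, the 2 being without the library labelled replicate 3 of WT-res whole-cell RNA. Over all genes, 0 of 26793 were called in the main fit, 1062 by DESeq2 and 2136 with the block. Without that library 552 of 26762 genes were called, and 4444 with the block. Over all 6 cytoplasmic libraries 1 member was called, against 3 by DESeq2, 2 with no filter, 2 at the threshold of the study, 0 in the joint fit and 1 whichever library was left out. The replicate block gave 2 there, where same-numbered libraries did not deviate together in every pair (-0.42, 0.619 and 0.467). Over all 25949 genes 396 were called in the main fit, 936 by DESeq2 and 520 with the block. Over the 4 kept libraries 18 members were called, against 2 in the joint fit, 4 at the threshold of the study and 6 to 20 with 1 library left out. Over all genes 5716 were called in the main fit and 368 in the joint fit. No paired analysis was possible because the kept libraries share only replicate number 1. Between fractions 16 and 19 members were called in WT-res and ΔRS-res, against 8 and 7 at the threshold of the study, and 7 to 19 and 15 to 21 with 1 library left out. Over all genes the main fits called 9135 and 10930. In WT-res the count of members was 10 without WT-res whole-cell replicate 1, 8 without WT-res whole-cell replicate 2, 8 without WT-res cytoplasmic replicate 1 and 7 without WT-res cytoplasmic replicate 3. The interaction called 0 members in every alternative run. For transcripts DESeq2 called 12 in whole-cell and 6 in cytoplasmic RNA, and the threshold of the study 16 and 15, where edgeR called 0, also with the block or with any 1 library left out. Where no number over all genes or transcripts is given, the counts of members cannot be set against one. The causes of these changes were not tested. Within each comparison, no member called in its main fit changed direction in any alternative. Uncalled members did so in at least 1 alternative, 10 in whole-cell RNA, 10 over all 6 cytoplasmic libraries and 6 over the 4 kept. Between fractions 1 did in WT-res and 4 in ΔRS-res, and for the interaction 20 did.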
